A study of Mus musculus with 10 samples.

Results

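The genes described here are mouse homologues of human chromosome 21 genes that lie on mouse chromosomes 10 and 17. They were examined in hippocampi that carry extra Dyrk1a and no extra copy of these genes themselves. A fixed list of 38 symbols, 25 on chromosome 10 and 13 on chromosome 17, was matched to the symbols of the array platform, and each gene was represented by the transcript cluster (the probe set that summarises a gene) with the highest mean over all 10 arrays. All 38 were measured, out of 19938 genes with a cluster of their own. The list is not complete, as the study counts more homologues on both chromosome 10 and chromosome 17. The question asked of them was whether extra Dyrk1a changes the RNA levels of chromosome 21 homologues that the transgene does not carry.

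RNA was made from both hippocampi of each mouse, all males aged 16 weeks. The Tg(Dyrk1a) group held 5 mice with an additional copy of Dyrk1a on a bacterial artificial chromosome, and the wild type group held 5 littermates without it. The labels give the background of both groups as C57BL/6N, whereas the methods of the study name C57BL/6J. Each mouse was hybridised to 1 Affymetrix Mouse Gene 1.0 ST array, and the deposited values are log2 intensities after robust multi-array averaging (RMA). The extra copy lies on the artificial chromosome and not at the gene's own locus. A whole-tissue array cannot tell apart fewer cells of a type from less RNA per cell.

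The mouse counterparts of human chromosome 21 are spread over 3 mouse chromosomes. The distal part of chromosome 16 holds most of them, Dyrk1a included, and shorter blocks on chromosomes 17 and 10 hold the rest. The block on chromosome 17 encodes, among others, Cbs, which makes cystathionine from homocysteine and serine, the lens crystallin Cryaa and the kinase Sik1. The block on chromosome 10 encodes Cstb, an inhibitor of lysosomal cysteine proteases, the editing enzyme Adarb1, the centrosome protein Pcnt and the leukocyte integrin chain Itgb2. Mouse models of Down syndrome that duplicate only the chromosome 16 segment leave both blocks at their normal copy number.

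The block on chromosome 10 ran from Prmt2 to Pdxk, chr10:76207226-78464948 on GRCm38.p6, and the block on chromosome 17 from Umodl1 to Rrp1b, chr17:30954648-32062865. The first held 46 measured genes, of which 25 were members, and the second held 19, of which 13 were members. The RefSeq promoter table of the same build held an entry for 29 of the 38 members, and Tff3, Abcg1, Itgb2, Pde9a, Pcbp3, Pknox1, Ube2g2, Cstb and Sik1 had none there. Sequence from the 250 bases before the start listed there is shown for the members of each direction with the smallest p-value that had an entry, Pttg1ip and Dip2a, and for Cbs, with GC boxes in capitals (GGGCGG on the strand shown, or CCGCCC for the opposite strand). The windows of Dip2a and Cbs ran 69 and 28 bases into the extent of the gene as RefSeq gives it, and those bases are left out. They read 5′ to 3′ along the gene, from chr10:77581405-77581654 on the plus strand for Pttg1ip, chr10:76345361-76345541 on the minus strand for Dip2a and chr17:31637234-31637455 on the minus strand for Cbs.
Pttg1ip: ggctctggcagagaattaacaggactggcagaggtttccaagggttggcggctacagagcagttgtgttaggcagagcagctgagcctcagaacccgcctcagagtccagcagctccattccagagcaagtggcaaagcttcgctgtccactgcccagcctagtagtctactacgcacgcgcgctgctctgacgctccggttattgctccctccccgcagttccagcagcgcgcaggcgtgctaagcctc
Dip2a: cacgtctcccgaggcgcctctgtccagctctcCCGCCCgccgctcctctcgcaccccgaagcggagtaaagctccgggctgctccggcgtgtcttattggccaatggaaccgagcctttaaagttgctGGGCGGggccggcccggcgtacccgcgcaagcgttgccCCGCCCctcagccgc
Cbs: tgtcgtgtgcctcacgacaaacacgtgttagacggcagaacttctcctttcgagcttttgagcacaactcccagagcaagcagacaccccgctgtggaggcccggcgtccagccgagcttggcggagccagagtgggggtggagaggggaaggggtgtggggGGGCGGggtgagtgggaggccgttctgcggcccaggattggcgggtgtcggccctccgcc

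These 3 upstream sequences, of 250, 181 and 222 bases, held 0 GC boxes in Pttg1ip, 3 in Dip2a and 1 in Cbs. Their GC content was 60.0%, 70.2% and 66.2%. Over the whole windows of 250 bases the counts were 0, 3 and 2, and the GC content was 60.0%, 74.4% and 68.0%. Counted over whole windows of 250 bases, a GC box on either strand was found in 17 of the 29 members (58.6%) and in 33.0% of all 27025 promoters, with 1 window per gene, that of the most upstream start in the promoter table. For 13 of the 29 members that window overlapped the gene's RefSeq extent. For 6 of these 13 it lay wholly inside, at a start within the gene. No filter by gene type, such as protein-coding, was applied to the set of all promoters. The median GC content was 60.4% in the members and 52.0% in all promoters, so that the motif and the base composition went together. CCAAT (or ATTGG on the opposite strand) was found in 9 of the 29 members (31.0%) and in 34.5% of all promoters. The cAMP response element TGACGTCA was found in 0 of the 29 and in 1.60% of all promoters, and the motif TATAAA, on either strand, in 4 of the 29 (13.8%) and in 13.0% of all. Each of these matches describes the letters of the window and says nothing of binding.

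Before the members were compared, Dyrk1a itself was examined as the check of the labels. Its brighter transcript cluster (10437136) measured 11.28, 11.15, 11.14, 11.19 and 11.15 in wild type replicates 1 to 5 and 11.65, 11.62, 11.67, 11.65 and 11.68 in Tg(Dyrk1a) replicates 1 to 5, as log2 values. Every transgenic value lay above every wild type value. The mean rose from 11.18 ± 0.06 to 11.65 ± 0.02 (SD, n = 5 each), which is 1.38-fold and 0.47 ± 0.03 (SE) on the log2 scale (adjusted limma p of 0.000138). A dimmer Dyrk1a cluster (10437134) gave 0.16 ± 0.05 with non-overlapping groups and an adjusted p of 0.947 by limma.

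None of the 38 members changed at an adjusted p under 0.05 by limma, with adjustment over all 23410 annotated transcript clusters, and the smallest adjusted p was 0.947. Over all clusters 2 passed (0.00854%), Dyrk1a and the transcription factor gene Rfx5 (-0.30 ± 0.04). At an unadjusted limma p under 0.05, 3 members stood out, Cstb and Pttg1ip with higher means and Pknox1 with a lower mean in Tg(Dyrk1a). That was 7.89% of the members, against 4.93% of all clusters. An exact permutation p under 0.05 was reached by the same 3 and by Dip2a, 10.5% of the members against 5.05% of all clusters. The count of 3 by limma became 2 without wild type replicate 1 or without Tg(Dyrk1a) replicate 2, and 5 without wild type replicate 2, under quantile normalization or with marker covariates. By FCROS, the rank-based method that the study itself used, Cstb was past the threshold and no other member was, 2.63% against 4.83%. The trimming of ranks is not stated by the study, and without it Cstb, Pttg1ip and Pknox1 were past the threshold, 7.89% against 4.96%. Groups of mice without overlap were found for 0 of the 38 members and for 0.807% of all clusters. A share that small leaves little room for a lower count among 38 genes.

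**Figure D1:**
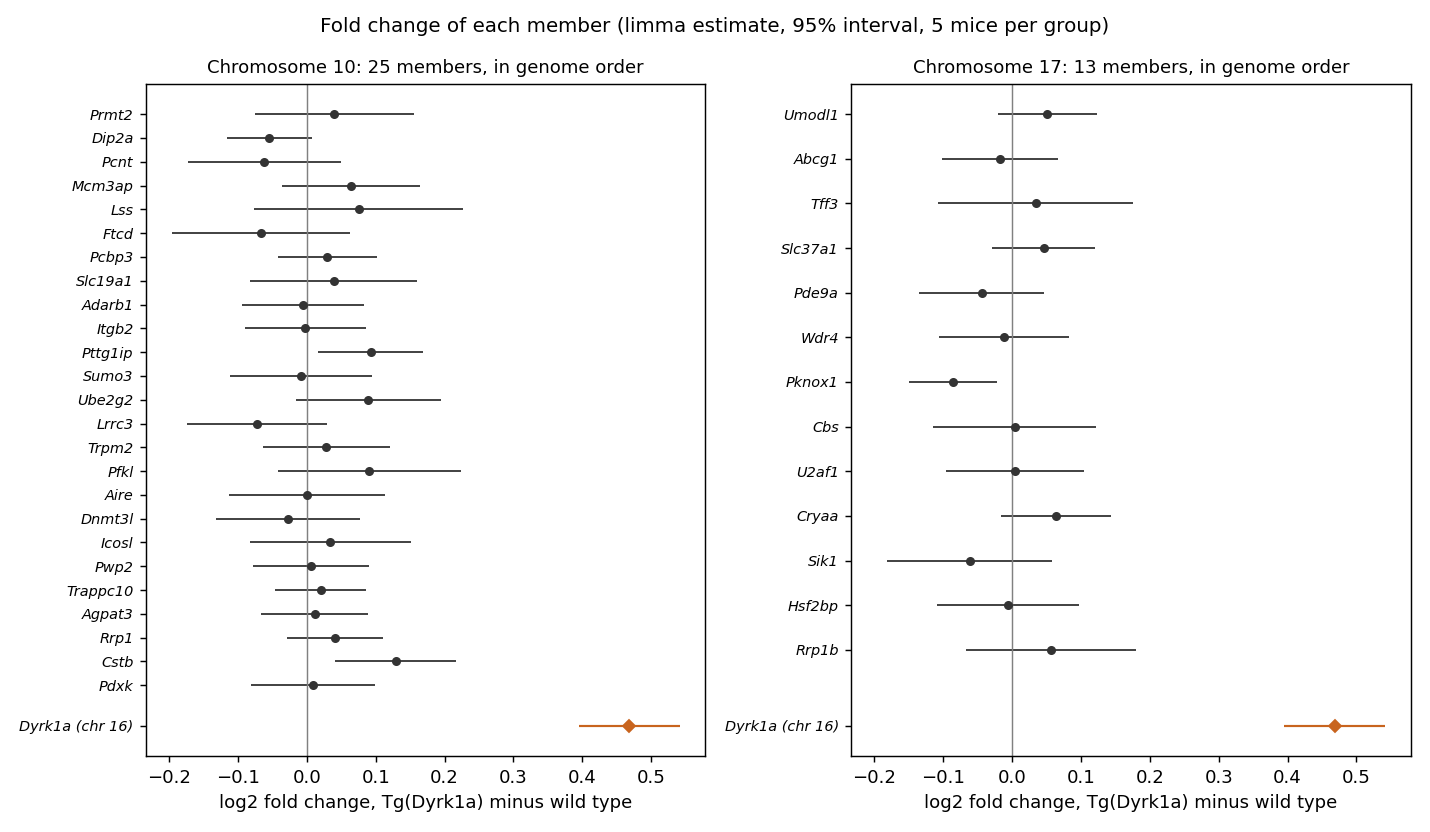
Log2 fold change of each member, Tg(Dyrk1a) minus wild type, with its 95% interval from limma (5 mice per group), in genome order on chromosome 10 (left) and chromosome 17 (right), with Dyrk1a in orange at the foot of each panel. All member estimates lie between -0.09 and 0.13, and the widest bound, that of Lss at 0.23, stays below the Dyrk1a estimate of 0.47.

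The sizes of the differences were small for all members. The log2 fold change was under 0.05 in size for 23 members, between 0.05 and 0.1 for 14 and above 0.1 for Cstb. The standard error ran from 0.03 to 0.07 with a median of 0.04. The 95% interval of every member lay within the size of the Dyrk1a change on both sides of 0, as did that of 99.5% of all clusters. The bounds most distant from 0 corresponded to 0.873-fold and 1.17-fold. A ratio of 1.5, the ratio of 3 gene copies to 2, lay outside the interval of each member on the array scale. On that scale the 2 Dyrk1a clusters read 1.38-fold and 1.113-fold. Upper bounds above the second were those of Lss and Pfkl (both 1.17-fold), Cstb (1.16-fold), Ube2g2 (1.14-fold), Rrp1b and Tff3 (both 1.13-fold). Those of Pttg1ip and Mcm3ap (both 1.12-fold), Slc19a1 (1.117-fold) and Prmt2 (1.114-fold) lay above it too. The bounds are therefore limits on array values and not on the amount of RNA.

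More members had a higher than a lower mean in Tg(Dyrk1a), 24 against 14, or 63.2% higher beside 50.9% of all clusters. After each array was centred on its own median, 29 of 38 were higher, and that centring moved the median of all clusters by 0.02. In that fit the median was 0.025 for the members and 0.016 for all clusters. The share of all clusters with a higher mean was not counted there. The median log2 fold change of the members was 0.01, with 0.02 on chromosome 10 and 0.00 on chromosome 17, beside 0.00 for all genes. Without the dimmest 30% of clusters the median was 0.011 for the 37 members left and 0.008 for all clusters left. On chromosome 10, 17 of 25 members were higher, and on chromosome 17, 7 of 13. The 95 measured homologues on chromosome 16 other than Dyrk1a had a median of 0.00, with 57 higher and 0 called by limma at the adjusted threshold. The lowest p of that group, unadjusted, was that of Vps26c (0.11 ± 0.04, limma p of 0.018).

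The members that act on protein stability and modification numbered 3, of which 2 were higher and 1 lower. Cstb, which encodes cystatin B, measured 9.01, 8.93, 8.94, 8.90 and 9.08 in wild type replicates 1 to 5 and 9.11, 9.18, 9.04, 9.11 and 9.07 in Tg(Dyrk1a) replicates 1 to 5. All 5 transgenic values lay above the wild type mean, and wild type replicate 5 lay within the transgenic range. Its log2 fold change was 0.13 ± 0.04 (1.09-fold), with a limma p of 0.00762 before and 0.947 after adjustment and an exact permutation p of 0.0238.

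Ube2g2, a ubiquitin-conjugating enzyme of protein quality control in the endoplasmic reticulum, measured 9.36, 9.45, 9.24, 9.37 and 9.24 in wild type and 9.47, 9.50, 9.37, 9.32 and 9.44 in Tg(Dyrk1a) mice. The ranges overlapped over most of their length, since wild type replicate 2 lay above 3 of the 5 transgenic mice. The difference of 0.09 ± 0.05 was not past the threshold (limma p of 0.088, adjusted p of 0.947). Sumo3, a small protein that is attached to other proteins as a tag, had a log2 fold change of -0.01 ± 0.05. Its wild type values kept within 9.80 and 9.87, while the transgenic values spread from 9.69 to 9.98.

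The transcription, chromatin and signalling genes had 2 members higher and 5 lower, with a median of -0.04. Pknox1, a homeodomain partner of PBX factors also called Prep1, measured 6.72, 6.71, 6.70, 6.70 and 6.62 in wild type and 6.60, 6.64, 6.60, 6.58 and 6.61 in Tg(Dyrk1a) mice. All 5 transgenic values lay below the wild type mean, and the overlap came from wild type replicate 5, which lay below Tg(Dyrk1a) replicate 2. Its log2 fold change was -0.09 ± 0.03 (0.943-fold), with a limma p of 0.013 before and 0.947 after adjustment and an exact permutation p of 0.0159.

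Dip2a, a disco-interacting protein 2 homologue, measured 8.76, 8.72, 8.74, 8.71 and 8.78 in wild type and 8.66, 8.67, 8.71, 8.71 and 8.68 in Tg(Dyrk1a) mice. All 5 transgenic values were below the wild type mean, with Tg(Dyrk1a) replicate 4 and wild type replicate 4 nearly equal. The difference of -0.05 ± 0.03 gave a limma p of 0.078, an adjusted p of 0.947 and an exact permutation p of 0.0159. Of the others in this class, the salt-inducible kinase Sik1 had -0.06 ± 0.06 and the cGMP phosphodiesterase Pde9a -0.04 ± 0.04. The arginine methyltransferase Prmt2 had 0.04 ± 0.05, the DNA methylation cofactor Dnmt3l -0.03 ± 0.05 and the thymic regulator Aire 0.00 ± 0.05. Dnmt3l, at a mean of 5.01 in Tg(Dyrk1a) and 5.03 in wild type mice, was the only member below the level of 5.93 that cut off the dimmest 30% of clusters.

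Among 4 genes of membrane traffic, the centrosome and cell division, 2 were higher and 2 lower. Pttg1ip, the binding factor of securin (Pttg1), measured 9.36, 9.46, 9.40, 9.49 and 9.50 in wild type and 9.51, 9.58, 9.53, 9.50 and 9.55 in Tg(Dyrk1a) mice. All 5 transgenic values lay above the wild type mean, and the lowest of them, replicate 4, was level with wild type replicate 5. Its log2 fold change was 0.09 ± 0.04 (1.07-fold), with a limma p of 0.021 before and 0.947 after adjustment and an exact permutation p of 0.0159. The TRAPP tether subunit Trappc10 differed by 0.02 ± 0.03, the pericentrin gene Pcnt by -0.06 ± 0.05 and the meiotic recombination gene Hsf2bp by -0.01 ± 0.05.

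**Figure D2:**
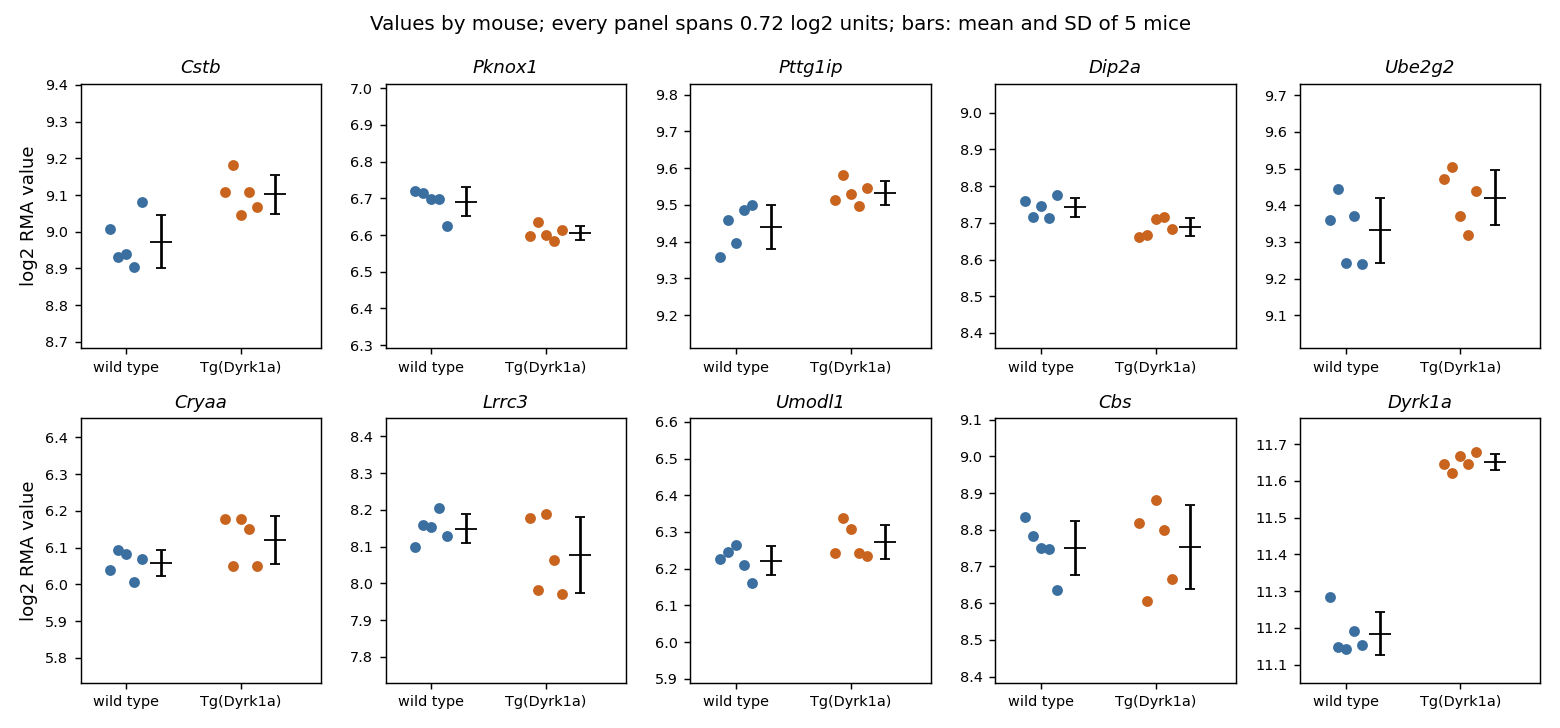
Log2 RMA values of the 8 members with the smallest limma p, of Cbs and of Dyrk1a, 1 point per mouse (wild type blue, Tg(Dyrk1a) orange), with the mean and SD of 5 mice beside the points and the same axis length in every panel. Only the Dyrk1a groups stand apart, and the groups overlap for Cstb (transgenic values 9.04 to 9.18, wild type 8.90 to 9.08) and all other members shown.

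The metabolic enzymes and transporters had 7 of 9 members higher, a median of 0.01 and 0 at an unadjusted limma p under 0.05. Cbs measured 8.84, 8.78, 8.75, 8.75 and 8.64 in wild type and 8.82, 8.61, 8.88, 8.80 and 8.67 in Tg(Dyrk1a) mice. The transgenic mice held both the highest and the lowest value, and the groups overlapped over the whole wild type range. The difference was 0.00 ± 0.05, with a 95% interval of -0.12 to 0.12 and an adjusted limma p of 0.998. The sign of this near-zero value turned in 5 alternatives, quantile normalization among them (-0.01).

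Pfkl, the liver-type phosphofructokinase of glycolysis, had the largest difference of this class, 0.09 ± 0.06 (limma p of 0.163), with wild type values from 9.98 to 10.28 and transgenic values from 10.15 to 10.36. Lss, which forms lanosterol in cholesterol synthesis, had 0.08 ± 0.07 and the widest interval of any member, -0.08 to 0.23. Slc37a1, a glucose-6-phosphate transporter, had 0.05 ± 0.03 with all 5 transgenic values above the wild type mean. The folate carrier Slc19a1 had 0.04 ± 0.06, and a dimmer second cluster of it 0.01 ± 0.11. Ftcd, a folate enzyme of histidine breakdown, had -0.07 ± 0.06. The acyltransferase Agpat3 had 0.01 ± 0.04, the pyridoxal kinase Pdxk 0.01 ± 0.04 and the sterol exporter Abcg1 -0.02 ± 0.04.

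The RNA processing genes had 6 of 8 members higher, a median of 0.02 and 0 at an unadjusted limma p under 0.05. Mcm3ap, which encodes the mRNA export factor GANP, had the largest difference, 0.06 ± 0.05, and its value in Tg(Dyrk1a) replicate 4 (8.48) lay above the other 9 mice. Rrp1b, a nucleolar protein of ribosome assembly, had 0.06 ± 0.06, and here too Tg(Dyrk1a) replicate 4 was the highest of 10 (6.58). The other nucleolar members Rrp1 and Pwp2 had 0.04 ± 0.03 and 0.01 ± 0.04, and Wdr4, a subunit of a tRNA methyltransferase, had -0.01 ± 0.04. The poly(C)-binding protein Pcbp3 differed by 0.03 ± 0.03 and the RNA-editing deaminase Adarb1 by -0.01 ± 0.04. U2af1, which recognises the 3′ splice site, differed by 0.00 ± 0.05, and a dimmer second cluster of it by 0.01 ± 0.05. By identifier order the dimmer cluster (10449731) fell between those of its neighbours Cbs and Sik1, and the brighter one (10447515) did not. Where probes fall within the gene was not given for either cluster in the sources used here.

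The leukocyte and cell surface genes had 2 members higher and 2 lower. Lrrc3, a leucine-rich repeat membrane protein, measured 8.10, 8.16, 8.15, 8.21 and 8.13 in wild type and 8.18, 7.98, 8.19, 8.06 and 7.97 in Tg(Dyrk1a) mice. The transgenic mice fell on both sides of the wild type mean, 3 below and 2 above, and spread more widely (SD of 0.10 against 0.04). The difference was -0.07 ± 0.05 (limma p of 0.145, adjusted p of 0.947). The cation channel Trpm2 had 0.03 ± 0.04, the co-stimulatory ligand Icosl 0.03 ± 0.05 and the integrin β2 chain Itgb2 0.00 ± 0.04. The 18 measured genes of the list of leukocyte integrins and microglia were split 10 higher to 8 lower.

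The secreted and lens proteins were higher in 3 of 3. Cryaa, the αA-crystallin of the lens, measured 6.04, 6.09, 6.08, 6.01 and 6.07 in wild type and 6.18, 6.05, 6.18, 6.15 and 6.05 in Tg(Dyrk1a) mice. The transgenic values formed a higher group of 3 and a pair inside the wild type range. The difference was 0.06 ± 0.04 (limma p of 0.108, adjusted p of 0.947).

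Umodl1, an uromodulin-like membrane protein, measured 6.23, 6.25, 6.26, 6.21 and 6.16 in wild type and 6.24, 6.34, 6.31, 6.24 and 6.24 in Tg(Dyrk1a) mice. All 5 transgenic values were above the wild type mean, though 3 of them lay within the wild type range. The difference was 0.05 ± 0.03 (limma p of 0.145, adjusted p of 0.947). The trefoil peptide Tff3 had 0.03 ± 0.07. Cryaa, Hsf2bp, Umodl1 and Rrp1b lay near the level of 5.93 below which the dimmest 30% of clusters fell, with lowest values of 6.01, 6.07, 6.16 and 6.24. The lowest value of Pknox1 was 6.58.

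The spread among mice within a group was of the usual size for these arrays, with a median residual SD of 0.073 for the members and 0.070 for all genes. A member's range over all 10 mice ran from 0.11 (Dip2a) to 0.40 (Lss). The median deviation of the 38 members from their own means, taken within each mouse, lay between -0.03 (Tg(Dyrk1a) replicate 4) and 0.04 (Tg(Dyrk1a) replicate 1). In these same mice 13 and 26 of the 38 members were above their means. The largest single deviations were Lss in wild type replicate 2 (8.02, where its wild type mean was 8.22), Pfkl in wild type replicate 3 (9.98) and Rrp1b in Tg(Dyrk1a) replicate 4.

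**Figure D3:**
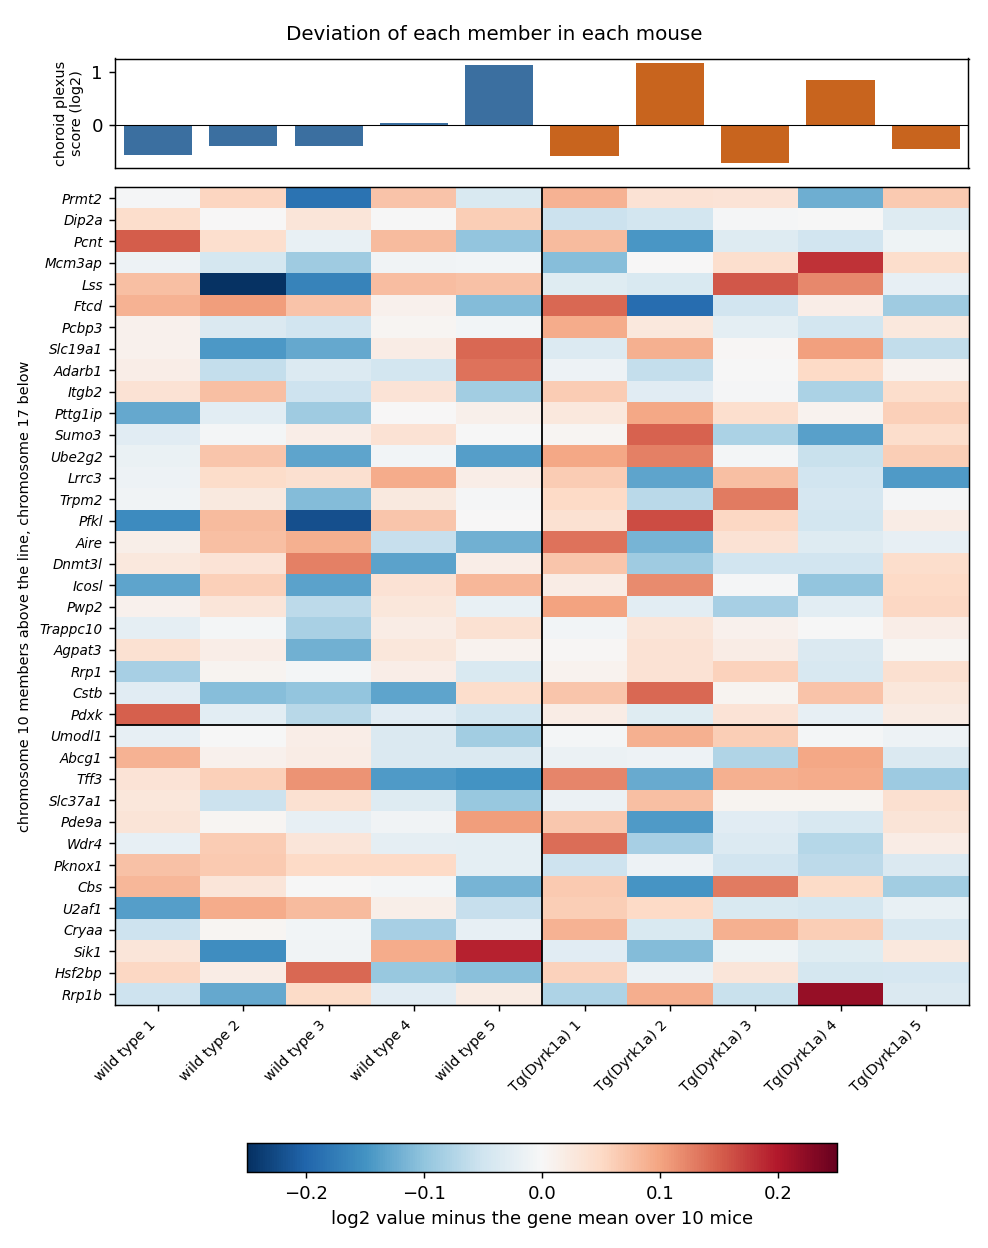
Deviation of each member (rows, in genome order) from its mean over 10 mice in each mouse (columns), in log2 units, with the choroid plexus score of the mouse as bars above. No column is of 1 colour throughout, as the median deviation per mouse lay between -0.03 and 0.04, and the choroid plexus score was high in wild type replicate 5 and Tg(Dyrk1a) replicates 2 and 4.

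The hippocampal markers Prox1 (dentate granule cells) and Wfs1 (CA1 pyramidal cells) were well expressed, with means of 9.97 and 10.59. The makeup of the tissue differed between arrays. In the dentate gyrus list 9 of 10 markers were higher in Tg(Dyrk1a), with a median of 0.11 and scores from -0.19 to 0.05 in wild type and -0.07 to 0.22 in Tg(Dyrk1a) mice, and Prox1 itself had a log2 fold change of 0.12. The choroid plexus score, the mean log2 deviation over 13 markers, ran from -0.57 to 1.15 in wild type and from -0.73 to 1.17 in Tg(Dyrk1a) mice. In Tg(Dyrk1a) 10 of 13 markers were higher, but Ttr of the same list was lower, at -0.47, with values from 7.97 to 13.24 over the 10 mice. For the meninges list, 15 of 16 markers were higher, with scores from -0.25 to 0.08 in wild type and -0.11 to 0.30 in Tg(Dyrk1a) mice. For the endothelial and mural list it was 13 of 15, with scores from -0.171 to 0.018 in wild type and from 0.021 to 0.088 in Tg(Dyrk1a) mice, so that every transgenic score lay above every wild type score. For the thalamus list it was 0 of 10, with scores from -0.14 to 0.56 and from -0.17 to -0.02. No marker was at 0 on this scale. The part of the dentate gyrus and endothelial shifts in the member differences was not tested, and the endothelial score cannot be told apart from genotype in these mice.

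When wild type replicate 5 and Tg(Dyrk1a) replicates 2 and 4, the 3 arrays with high choroid plexus scores, were left out, Cstb kept 0.13 ± 0.04, Pttg1ip 0.10 ± 0.04 and Pknox1 -0.10 ± 0.03. Other members moved more, and 28 of 38 were then higher, with a median of 0.02 beside 0.00 for all clusters in the same fit. The share of all clusters with a higher mean was not counted for that fit. Sik1 went from -0.06 to 0.01 and Rrp1b from 0.06 to -0.02. Trpm2 went from 0.03 to 0.08. When the scores for choroid plexus, meninges and thalamus entered the limma fit as covariates, Pknox1 had -0.12 ± 0.05 and Cstb 0.16 ± 0.06. Under the same covariates Pttg1ip had 0.05 ± 0.05, with an unadjusted limma p of 0.351, and Ube2g2 0.01 ± 0.07. Other members grew or turned in that fit, as Tff3 had 0.18 ± 0.07, Cryaa 0.14 ± 0.06 and Dnmt3l 0.12 ± 0.05 in place of 0.03, 0.06 and -0.03. Their unadjusted limma p-values were 0.0274, 0.0363 and 0.0447, and every adjusted p was 0.999. The endothelial and dentate gyrus scores were not among these covariates.

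Genes that lie between the members but are not on the fixed list showed the same small sizes. Some of them may themselves be homologues of human chromosome 21 genes, since the study counts more homologues on both chromosomes than the list holds. On chromosome 10, 8 of 21 were higher, with a median of -0.02, and S100b, an astrocyte calcium-binding protein, had the smallest p (0.12 ± 0.06, limma p of 0.051). On chromosome 17, 3 of 6 were higher, and the complex I subunit Ndufv3 had the smallest p (0.06 ± 0.04, limma p of 0.125). None of these 27 genes was called at the adjusted threshold by limma, and 0 had an unadjusted p under 0.05.

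The pathway partners and paralogues of the members were taken from 11 lists, in which 218 of 242 genes were measured. By limma, 0 of the 218 passed the adjusted threshold, and 14 (6.42%) had an unadjusted p under 0.05, 11 higher and 3 lower in Tg(Dyrk1a), beside 5.28% of all genes. Higher means were found for 146 (67.0%), beside 51.7% of all genes. In the list around Cbs, Pdxk, Ftcd and Slc19a1, one-carbon metabolism, transsulfuration and vitamin B6, 21 of 30 were higher with a median of 0.04, and the mitochondrial folate enzyme Mthfd1l had the smallest p (-0.14 ± 0.05). Around Lss and Abcg1, 16 of 22 sterol genes were higher, and the sterol reductase Tm7sf2 had 0.13 ± 0.05. Around Pfkl, 17 of 20 glycolysis genes were higher with a median of 0.03, and the glucose-6-phosphate transporter Slc37a4 had 0.12 ± 0.04.

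Around Cstb, 12 of 15 cystatins and cathepsins were higher, and cathepsin F (Ctsf) had 0.07 ± 0.03. Around Sumo3, 10 of 14 SUMO pathway genes were higher, and the protease Senp8 had 0.11 ± 0.06. For Rrp1, Rrp1b and Pwp2, 20 of 28 ribosomal RNA processing genes were higher, and Nip7 had 0.12 ± 0.06. For Adarb1 and U2af1, 8 of 13 genes of RNA editing and splice site recognition were higher, and Adarb2, a brain paralogue of Adarb1, had 0.11 ± 0.06.

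Around Sik1, 5 of 14 SIK, CREB and CRTC genes were higher, and Hdac4, a deacetylase that SIK kinases phosphorylate, had -0.06 ± 0.05. Around Pde9a, 11 of 18 phosphodiesterases were higher, and Pde5a had 0.07 ± 0.04. Around Itgb2, its partner chain Itgal had -0.12 ± 0.04. Around Trappc10 and Pcnt, 16 of 26 genes were higher, and Trappc1 had 0.11 ± 0.04. An unadjusted limma p under 0.05 was found for 5 of these 26, 3 of the 18 genes of leukocyte integrins and microglia, 3 of the 30 of one-carbon metabolism and at most 1 in each other list, beside 5.28% of all genes.

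**Figure D4:**
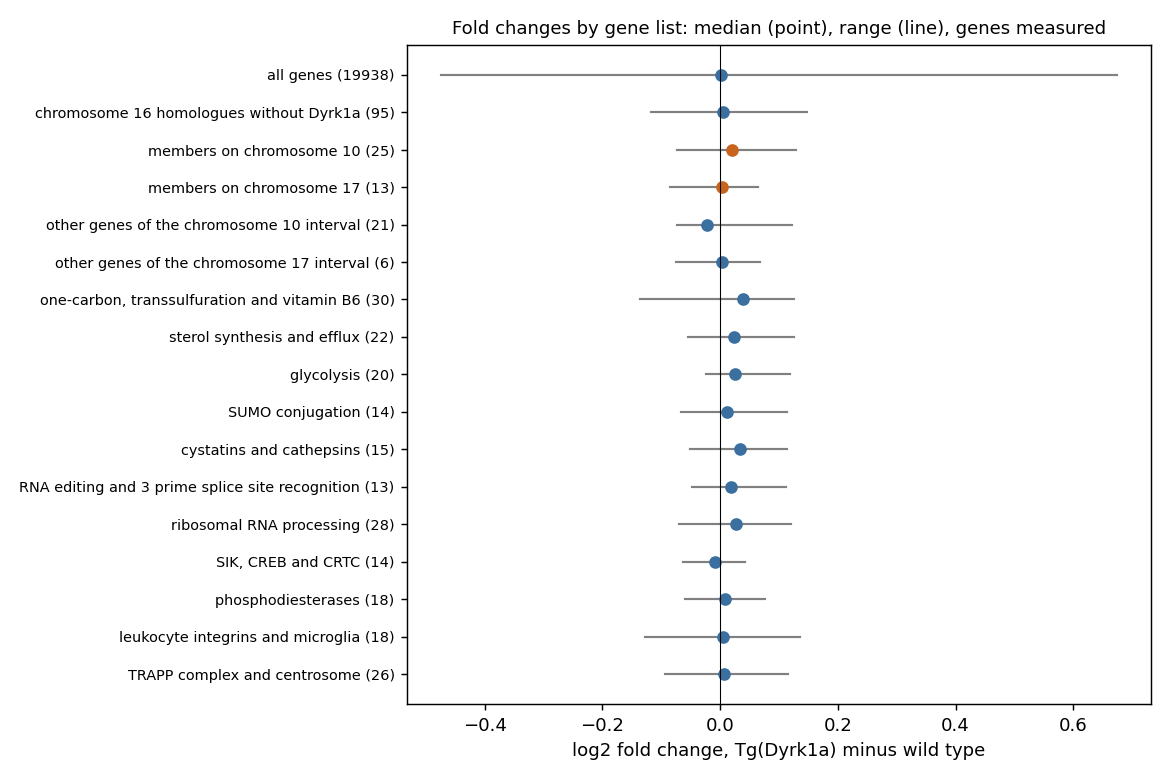
Median (point) and full range (line) of the log2 fold changes, Tg(Dyrk1a) minus wild type, of all genes, the chromosome 16 homologues without Dyrk1a, the members on each chromosome (orange), the other genes of both blocks and the 11 related lists, with the number of genes measured in brackets. The medians lie between -0.02 and 0.04, and the members reach from -0.09 to 0.13.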

How the data were processed

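The authors deposited log2 RMA values for 35556 transcript clusters on 10 GeneChip Mouse Gene 1.0 ST arrays, 1 per mouse. The submitters' processing notes name RMA, limma and mm10, and no source used here says which arrays were normalised as 1 set. The arrays had medians of 6.57 to 6.66 and correlated at 0.996 to 0.999, and the number of arrays limits the precision. GEO's platform annotation named 23410 clusters, of which 21789 carried 1 gene symbol and 1621 several, and 12146 rows had no gene. Clusters with several symbols were tested and never named. Coordinates and promoters are from RefSeq on GRCm38.p6.

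The main test was limma's lmFit and eBayes without covariates (limma 3.58.1, R 4.3.3), with Benjamini-Hochberg adjustment over the 23410 clusters and a threshold of 0.05. Exact permutation tests were two-sided over 252 assignments, with 0.00794 as the smallest p possible. FCROS was rewritten, with f-values outside 0.025 to 0.975 as calls and 25% of ranks trimmed at each end. The code was tested on simulated data. Errors of means are SD and those of fold changes SE. Values in every mouse are given for the 8 members with the smallest limma p, Cbs and Dyrk1a, and from each related list the gene with the smallest p is named. The members, lists and tests were chosen with earlier results of these data known. Alternatives covered normalization, centring, filters, variance models, array weights, the replicate block, the choice of cluster, each array left out, the arrays high in choroid plexus markers and marker covariates.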

Additional observations from a re-analysis of the deposited data

Results flagged for a closer look

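In 5 of the 78 groups of 5 mice examined (38 members and Dyrk1a in each genotype), 1 mouse lay apart from the other 4 by more than Dixon's critical gap of 0.71 of the range, and chance alone flags about 1 in 20 groups. Pdxk was highest in wild type replicate 1 (10.09, with 9.91 as the nearest). Agpat3 and Trpm2 were lowest in wild type replicate 3 (10.78 with 10.90 as the nearest, and 7.25 with 7.35 as the nearest). Prmt2 was lowest in Tg(Dyrk1a) replicate 4 (8.31, with 8.46 as the nearest). Pknox1 was lowest in wild type replicate 5 (6.62, with 6.70 as the nearest), which is the mouse that made its groups overlap.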

How the results depend on the processing

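Dyrk1a kept its direction and its call under every alternative except the marker scores as covariates, where it was 0.43 with an adjusted limma p of 0.306. The count of members called stayed at 0 under the 20 alternatives by limma, where the smallest adjusted p of a member was 0.711 (array weights), and was 1 by FCROS and 3 by FCROS without trimming (Cstb, Pttg1ip and Pknox1). The difference of Cbs turned negative under quantile normalization (-0.011), and leaving out 1 array gave -0.028 to 0.041, the lowest without Tg(Dyrk1a) replicate 3 and the highest without Tg(Dyrk1a) replicate 2. It was negative also without Tg(Dyrk1a) replicate 1 or 4 (both -0.01) or wild type replicate 5 (-0.02). Of the 38 members, 24 changed sign under at least 1 of the 20 alternatives and 14 under none. The number at an unadjusted limma p under 0.05 ran from 2 to 5, and the number with a higher mean from 20 to 29. Replicate numbers did not pair the mice, with correlations of deviations between -0.29 and 0.28 for mice of the same number, and the replicate block left 1 cluster of 23410 called, 0 members called and the median of the members at 0.01. The cause of these movements was not tested. The standard errors of the members, 0.03 to 0.07 with 5 mice per group, limit what could be detected. No detection limit was computed for the members, and the simulated data served to test the code.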
